A study of Mus musculus with 3 samples.

Results

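The suppressors of cytokine signalling (SOCS family: Cish and Socs1 to Socs7) and 2 phosphatases that act on JAK kinases and their partners (Ptpn6, which encodes Shp-1, and Ptprc, which encodes CD45) were described in bone marrow cells of TBLR1-RARa leukemia mice. These 10 genes were chosen by their symbols, matched through NCBI Gene IDs, and all 10 were found among the 16742 genes listed in any of the 3 libraries. RNA-seq was performed to compare leukemia cells with normal progenitor-enriched marrow. Control RNA came from Lin- bone marrow cells of wild type C57BL/6 mice, that is, marrow from which cells carrying lineage markers were removed. For TR1 and TR9, GFP+ bone marrow cells were sorted from mice of genotype TBLR1-RARa on the same C57BL/6 background, which carried a retrovirally delivered TBLR1-RARa fusion and GFP and were the third generation of transplanted leukemia. All mice were 6 to 8 weeks old by their labels, and each library pooled 3 mice. TR1 and TR9 each go back to 1 primary leukemic mouse, so each stands for 1 leukemia.

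With 1 library per condition there was no replicate check, and the spread between mice is not known. Every p-value below compares the reads of a pair of libraries, not the conditions, and every interval is a 95% exact interval for counting error only. The control was enriched by removal of lineage-positive cells while the TR cells were sorted for GFP, so the leukemia and the way of isolation cannot be told apart. In these bulk libraries, fewer cells of a type and less RNA per cell cannot be told apart either.

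Cytokine receptors of the type that lack their own kinase activity signal through bound JAK kinases, which phosphorylate STAT transcription factors. Cish and Socs1 to Socs3 are classical feedback genes that activated STATs induce, and their proteins block the receptor or the JAK or bring a Cul5 ubiquitin ligase to it through the SOCS box. Socs4 to Socs7 share this domain layout and are better known from growth factor receptor signalling, while Shp-1 and CD45 remove phosphate from JAKs, receptors and Src kinases in blood cells.

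Because activated STAT dimers bind the palindrome TTCNNNGAA, known as a GAS element, the promoters of the members were searched for it. The motif is its own reverse complement, so 1 search covers both strands. RefSeq (GRCm38.p6) promoter windows of 250 bases before to 50 bases after the transcription start were searched in 6 of the 10 members. Socs2, Socs5, Socs6 and Socs7 were left out of this search, so nothing is said of their promoters. Matches were found in the windows of the feedback genes Cish and Socs3, and both stretches of sequence are shown with the matches in capitals, read 5′ to 3′ on the strand of the gene.

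Cish, chr9:107296654-107296683, plus strand: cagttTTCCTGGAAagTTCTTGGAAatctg
Socs3, chr11:117969502-117969531, minus strand: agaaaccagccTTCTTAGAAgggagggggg

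The Cish stretch held 2 matches in tandem, beginning 0 and 11 bases after the first base of the RefSeq transcript, which is 51 and 40 bases before the nearest GENCODE M21 transcript start. The Socs3 match began 154 bases before the RefSeq start and 69 bases before the nearest GENCODE start. Both stretches nevertheless lie inside the full GENCODE span of the gene (chr9:107296026-107302784 and chr11:117966079-117970047), whose outermost start is further upstream. The windows of Socs1, Socs4, Ptpn6 and Ptprc held none. Of all 32851 RefSeq windows of this length, 8.30% held at least 1 match and 0.457% held 2 or more. A match describes the letters only and is not a measured binding site.

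The libraries held 5488778 (control), 5571409 (TR1) and 5129662 (TR9) expected counts, the number of reads that the authors' software assigned to genes. A count of 3, taken here as the floor, was worth between 0.538 and 0.585 CPM. The members took 0.0467%, 0.0694% and 0.0348% of the counts in control, TR1 and TR9, and every one of their counts was a whole number. Levels are given as FPKM, which are read counts divided by transcript length and by the total of the library, so that genes of different length can be set side by side. A gene was called higher or lower where the conditional exact Poisson test gave a p, adjusted after Benjamini and Hochberg over all genes listed in either library, of at most 0.001 and the log2 ratio of FPKM was at least 1 in size. These are the thresholds of the study's methods.

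The phosphatases were the most abundant members in every library, and no SOCS family gene reached 10 FPKM. Ptpn6 stood at 77.5, 77.2 and 54.5 FPKM in control, TR1 and TR9, above 93.4%, 94.1% and 90.7% of the genes listed. Ptprc stood at 32.9, 80.6 and 20.02 FPKM. In TR1 the counting intervals of Ptprc (77.4 to 83.9 FPKM) and Ptpn6 (72.3 to 82.2 FPKM) overlapped, whereas in control and TR9 Ptpn6 was above Ptprc. Within the family, Socs4 was first in all 3 libraries. In control its interval (7.88 to 11.5 FPKM) overlapped those of Socs6 (7.64 to 10.5 FPKM) and Socs7 (6.35 to 8.06 FPKM), followed by Socs5 and, each under 1 FPKM, by Cish, Socs2, Socs3 and Socs1. In TR9, Socs4 (6.14 to 9.51 FPKM), Socs3 (5.57 to 8.38 FPKM), Cish (5.24 to 8.37 FPKM) and Socs7 (5.80 to 7.50 FPKM) could not be ordered beyond their counting error.

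**Figure D1:**
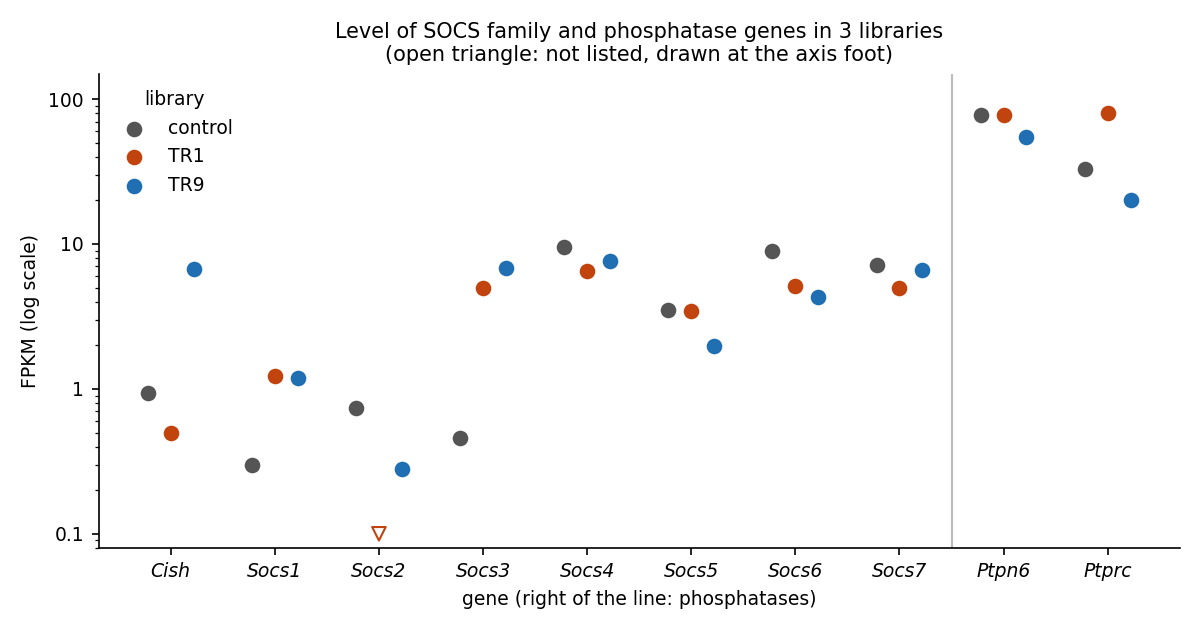
Level of each of the 10 members in FPKM (log axis) in the control, TR1 and TR9 libraries, 1 point per library. Socs3 lies far above its control point in both TR libraries, Cish does so in TR9 alone, and Ptprc is highest in TR1. Socs2 was not listed in TR1 and is drawn there as an open triangle at the axis foot.

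Against control, 2 of the 10 members were called higher in TR1 and 0 were called lower, where 8.09% of the 16282 genes tested were called higher and 13.0% lower. In TR9, 2 members were called higher and 1 lower, where 9.37% of 16303 genes were called higher and 10.8% lower. Only Socs3 among the 10 was called higher in both lines and 0 were called lower in both. Of all 16742 genes, 950 were called higher in both lines and 1404 lower in both. Cish was the other member called higher in TR9, Ptprc the other in TR1, and Socs6 was the member called lower in TR9. The members past a 2-fold difference, whatever the test, numbered 4 in TR1 and 5 in TR9, against 43.6% and 42.7% of all genes. The median log2 ratio of the members was −0.27 in TR1 and −0.41 in TR9, beside −0.29 and −0.12 over all genes. Both comparisons share the control library, so their values are given side by side and are not independent.

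Socs3, the inhibitor that binds the gp130 and G-CSF receptors and their JAKs, had the largest ratio to control in both lines among members detected in all 3 libraries. Its counts were 7 (control), 76 (TR1) and 97 (TR9), which corresponds to 0.46, 4.95 and 6.87 FPKM. Both TR libraries were therefore high and the control was low, close to the floor. The log2 ratio to control was 3.43 in TR1 (interval 2.32 to 4.79, 10.8-fold; adjusted p = 8.67e-15 by the conditional exact Poisson test). In TR9 it was 3.90 (interval 2.80 to 5.25, 14.9-fold; adjusted p = 7.88e-22 by the same test). Between the lines Socs3 differed by a log2 ratio of 0.47 (TR9 over TR1, interval 0.02 to 0.93), which did not pass the test (adjusted p = 0.105, conditional exact Poisson test). Socs3 lies on chromosome 11 (GRCm38, chr11:117966079-117970047, minus strand).

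Cish, a feedback gene of STAT5 signalling that was the first member of the family to be described, was high in TR9 alone. Control held 11 counts of it, TR1 held 6 and TR9 held 74, or 0.93, 0.50 and 6.67 FPKM. TR9 was above control by a log2 ratio of 2.84 (interval 1.92 to 3.91, 7.17-fold; adjusted p = 7.72e-13, conditional exact Poisson test). TR1 was at −0.90 with an interval from −2.61 to 0.67, so that no difference from control was detectable at this depth (adjusted p = 0.454, same exact test). The gene lies on the plus strand of chromosome 9 (GRCm38, chr9:107296026-107302784).

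Socs2 and Socs1, the remaining members of the feedback group, were near the floor. Socs2, the inhibitor of growth hormone receptor signalling, had 9 counts in control, 0 in the TR1 library and 3 in the TR9 library. TR1 was thus at least 3.05-fold lower than control against a floor of 3 counts, with an adjusted p of 0.00803 by the conditional exact Poisson test, which did not reach the threshold. In TR9 the log2 ratio was −1.40 (interval −3.92 to 0.60). Socs1, which inhibits JAK kinases directly and limits interferon signalling, had 2, 9 and 8 counts (0.30, 1.22 and 1.18 FPKM). Both TR libraries were above control, TR1 by a log2 ratio of 2.02 (interval −0.25 to 5.27) and TR9 by 1.98 (interval −0.35 to 5.25). Both intervals include 0, and a difference of Socs1 was not detectable at this depth.

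The members less tied to cytokine feedback gave smaller ratios. Socs6, known to bind activated Kit and Flt3 receptors, had 159 counts in control against 93 and 71 in the TR1 and TR9 libraries (8.98, 5.16 and 4.28 FPKM), so both TR libraries were below control. In TR9 the log2 ratio was −1.07 (interval −1.49 to −0.66, 2.10-fold lower; adjusted p = 4.27e-07, conditional exact Poisson test), just past the 2-fold limit. The call ended when libraries were scaled by TMM (log2 ratio −0.96). In TR1 the log2 ratio was −0.80 (interval −1.18 to −0.42), which had a small adjusted p (6.56e-05, exact test) but stayed within 2-fold.

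Socs4, an inhibitor of EGF receptor signalling, was on the lower side in both TR libraries, with 113, 78 and 85 counts (9.56, 6.48 and 7.69 FPKM). Its log2 ratio was −0.56 for TR1 (interval −0.996 to −0.13). For TR9 it was −0.31 (interval −0.74 to 0.11), and neither was called. Its close relative Socs5 had 86, 87 and 46 counts (3.48, 3.46 and 1.99 FPKM), so that control and TR1 were alike in count and TR9 was the low library. The log2 ratio of Socs5 was −0.01 for TR1 (interval −0.46 to 0.44), and for TR9 it was −0.81 (interval −1.36 to −0.27), again not called.

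Socs7, which has been tied to insulin receptor substrates and to the adaptor Nck, held the most counts of the family because its transcript is long. These were 279, 197 and 241 for control, TR1 and TR9 (7.17, 4.97 and 6.61 FPKM). TR1 was the low library, at a log2 ratio of −0.53 (interval −0.80 to −0.26), and TR9 was at −0.12 (interval −0.37 to 0.14). Neither was called.

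The phosphatases parted between the lines. Ptprc, the transmembrane phosphatase of nucleated blood cells, was read 954 times in control, 2369 times in TR1 and 539 times in TR9, so TR1 was the high library and TR9 the low one. In TR1 the log2 ratio was 1.29 (interval 1.18 to 1.40, 2.45-fold; adjusted p = 6.07e-131, conditional exact Poisson test). In TR9 it was −0.72 (interval −0.87 to −0.56, adjusted p = 1.78e-20, same exact test), within 2-fold and so not called. Ptprc produces several isoforms by alternative splicing. The authors' length for it, averaged over 3 transcripts, was 5237 (control), 5213 (TR1) and 5193 bases (TR9), so length moved its FPKM little between libraries.

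Ptpn6, the cytoplasmic phosphatase that docks on inhibitory receptors and on cytokine receptors, had 941, 953 and 619 counts. Control and TR1 were close, with a log2 ratio of −0.01 (interval −0.14 to 0.12). TR9 was below both, by −0.51 against control (interval −0.66 to −0.36, adjusted p = 4.27e-11 by the conditional exact Poisson test), within 2-fold and not called. The direction in TR1 depended on the scaling, and was 0.24 with TMM.

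**Figure D2:**
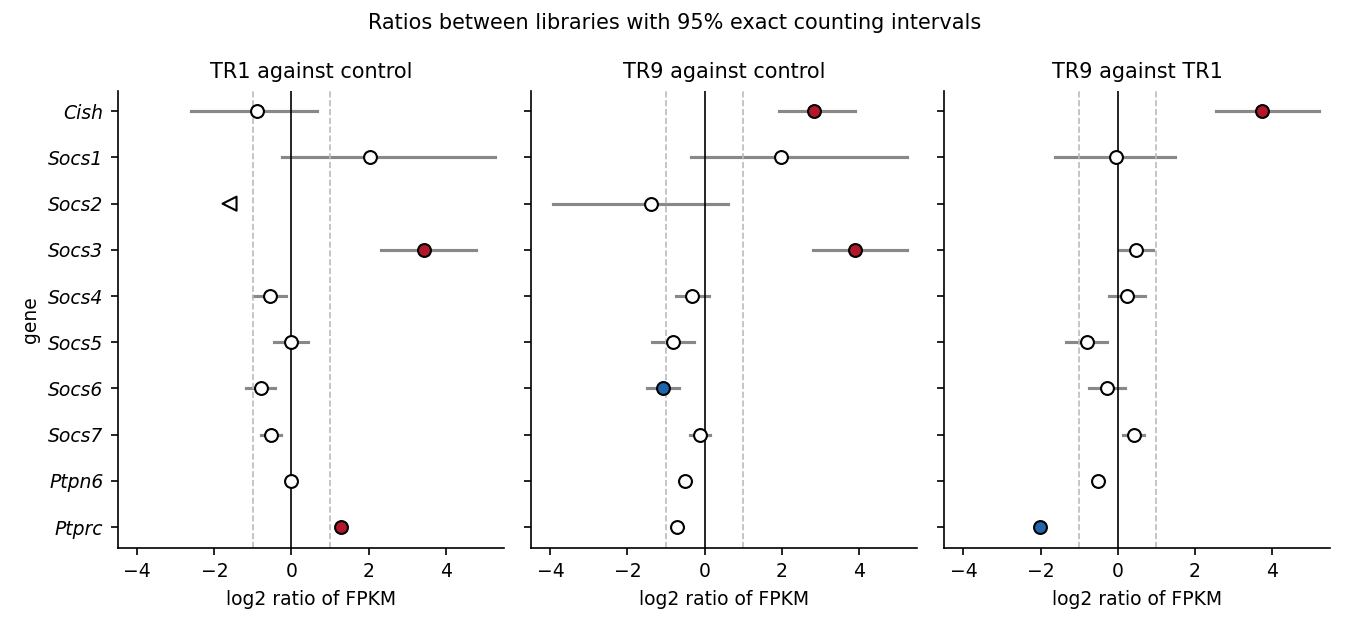
Log2 ratio of FPKM of each member, for TR1 against control, TR9 against control and TR9 against TR1, with bars for the 95% exact interval of counting error. Filled red and blue points were called higher and lower, open points were not called, and a triangle marks the bound for a gene at 0 in 1 library and dashed lines mark 2-fold; Socs3 is filled in both comparisons with control, and Cish and Ptprc are filled in the comparison of the lines.

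The lines were then compared directly, which leaves the control library and its isolation out. Of the 10 members, 1 was called higher in TR9 than in TR1 and 1 lower, where 4.34% of the 15706 genes tested were called higher and 2.31% lower. The higher member was Cish, at a log2 ratio of 3.74 (interval 2.55 to 5.23, 13.3-fold; adjusted p = 5.74e-16, conditional exact Poisson test). The lower member was Ptprc, at −2.01 (interval −2.15 to −1.87, 4.02-fold; adjusted p = 1.58e-237, same exact test). In all, 3 members were past 2-fold, against 28.1% of all genes, the third being Socs2 with 3 counts in TR9 and 0 in TR1, for which no fold is given. Ptpn6 was lower in TR9 by a log2 ratio of −0.50 (interval −0.65 to −0.35), within 2-fold. The other members ranged from −0.80 (Socs5, interval −1.35 to −0.27) to 0.47 (Socs3), and none of them was called. The members' median was 0.10, or 0.04 with Socs2 at its bound, beside 0.13 over all genes.

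The make-up of the SOCS family differed more between libraries than its total. The 8 genes summed to 31.6 FPKM in control, 26.7 in TR1 and 35.6 in TR9. Cish and Socs1 to Socs3 together gave 2.43 FPKM in control, 6.67 in TR1 and 15.0 in TR9, which is 7.69%, 24.9% and 42.2% of the family. Socs4 to Socs7 gave 29.2, 20.1 and 20.6 FPKM. The feedback group rested on 29, 91 and 182 counts. A share within a library does not depend on how libraries are scaled to each other.

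Socs3 took 1.45% of the family level in control, 18.5% in TR1 and 19.3% in TR9. Cish took 2.94%, 1.87% and 18.8%, so that in TR1 the feedback group was mostly Socs3 and in TR9 it was Socs3 and Cish in about equal parts. Socs6 went from 28.4% in control to 19.3% and 12.0%, and Socs4 from 30.2% to 24.2% and 21.6%. Socs5 was at 11.0%, 12.9% and 5.59%, and Socs7 was at 22.7% in control and 18.6% in both TR libraries. Without the correction for length Socs7 was the largest member, at 41.9%, 36.1% and 38.6% of the family's counts.

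**Figure D3:**
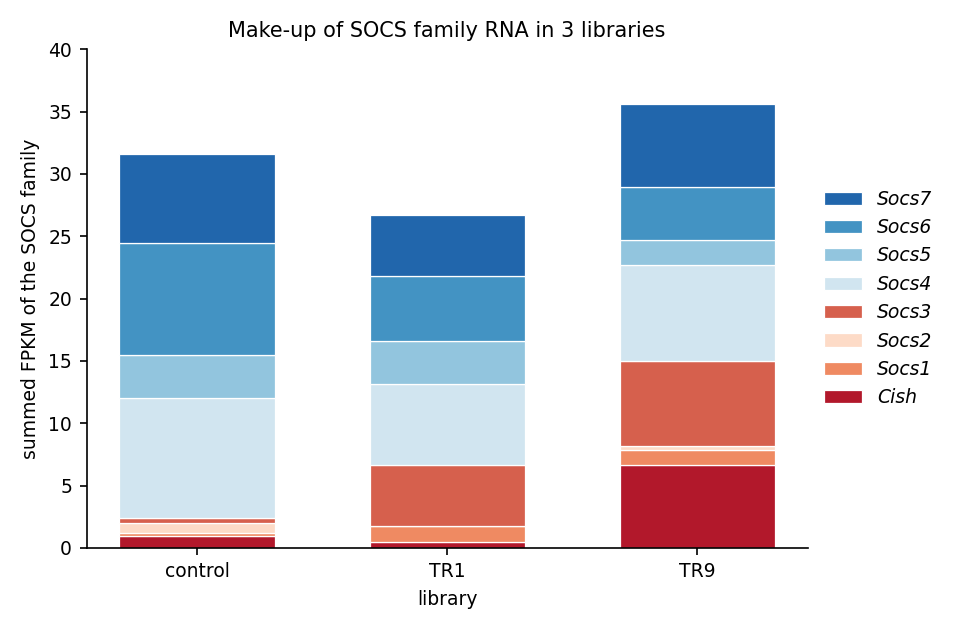
Stacked bars of the summed level of the 8 SOCS family genes in FPKM (linear axis from 0) in each library, 1 bar per library. The total lies between 26.7 and 35.6 FPKM, while the part made of Cish, Socs1, Socs2 and Socs3 widens from control to TR1 and TR9.

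Pairs of related members were compared within each library, as a log2 ratio of FPKM that no library scaling can move. Ptpn6 exceeded Ptprc by 1.24 in control and 1.44 in TR9 but was level with it in TR1 (−0.06). The difference between TR1 and control was −1.30 (interval −1.47 to −1.12), and that between TR9 and TR1 was 1.51 (interval 1.31 to 1.72). Cish exceeded Socs2 by 0.33 in control and by 4.57 in TR9, a difference of 4.24 whose interval ran from 2.01 to 6.99 because Socs2 had few counts. Socs6 against Socs7 was 0.05 in TR1 and −0.63 in TR9, and TR9 was below control by −0.95 (interval −1.45 to −0.46). Socs4 against Socs5 was higher in TR9 than in TR1 by 1.04 (interval 0.33 to 1.76). For Socs1 against Socs3 both intervals against control included 0.

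The genes whose pair of ratios to control lay nearest to that of Socs3 were sought among 9358 genes with at least 50 counts in control. They were Elane, the neutrophil elastase of primary granules, then Gfi1, a transcriptional repressor that granulocyte development requires, and Abcd2, a peroxisomal transporter. Elane, with 4272, 45700 and 60820 counts, stood at 3.39 for TR1 and 3.93 for TR9 on the log2 scale, at a Euclidean distance of 0.0433 from Socs3. Gfi1 had log2 ratios of 3.37 and 3.84 (distance 0.0870) and Abcd2 had 3.61 and 3.91 (distance 0.177). The likeness rests on 2 ratios with a shared control and is a description. All 3 distances lie well inside the counting intervals of Socs3, which had 7 counts in control, so neither the choice of these genes nor their order is firm.

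The cell content of the libraries differed along with these values. For comparison, 1404 of all 16742 genes were called lower in both lines and 950 higher in both. The 5 primary granule markers summed to 4251, 21278 and 23701 FPKM in control, TR1 and TR9, and the 8 late granulocyte markers to 92.7, 23162 and 8948 FPKM. Between the lines the late markers were split, as 5 were called lower in TR9 than in TR1 (S100a8 and S100a9 made up most of the TR1 sum) and 2, Camp and Ngp, were called higher. In contrast, the 10 erythroid markers summed to 2980, 44.6 and 44.7 FPKM and the 8 megakaryocyte markers to 950, 3.31 and 2.32 FPKM, and all of these 18 genes were called lower in both lines. So were all 7 mast, basophil and eosinophil markers (1155, 78.3 and 88.3 FPKM in sum) and 5 of 7 stroma and endothelium markers (545, 52.2 and 264 FPKM). Most of the last list's sum in both TR libraries was Pecam1 (41.4, 47.5 and 256 FPKM), which was called higher in TR9. Of the B cell markers, 5 were at 0 in TR1 and 4 in TR9, and all 7 listed summed to 12.6, 3.66 and 6.31 FPKM. Cd79b was called lower in both lines. Vpreb1 went the other way and was called higher in TR9 (log2 ratio 4.44, and 3.80 in TR1, not called). Of the 8 monocyte and macrophage markers (119, 191 and 79.6 FPKM in sum), 5 were called lower in both lines (Csf1r, Ly86, C1qa, C1qb and Cx3cr1), while Cd68 was called higher in both and gave 159 FPKM of the TR1 sum. Cd14 and Adgre1 were called higher in TR1 (log2 ratios 3.36 and 2.22) and were not called in TR9 (2.04 and 0.72). Of the 8 stem and progenitor markers (203, 100 and 163 FPKM in sum), 6 were called lower in TR1 and 4 in TR9. Among them Cd34 went from 75.8 FPKM in control to 5.80 and 4.34, and Hoxa9 from 144 counts to 0 and 0, whereas Ly6a (9.49, 26.9 and 87.6 FPKM) was called higher in both lines. Flt3 was called higher in TR1 (log2 ratio 1.25) and lower in TR9 (−1.28). The part of these shifts in the values of Socs3, Cish, Socs6 and Ptprc was not tested.

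Next, the genes around the members in the pathway were counted. Genes called in 1 line only are named here because of their call, after their values were seen. Over all genes, 950 were called higher in both lines and 1404 lower. Of the 4 JAK genes, Jak3 was called higher and Jak2 lower in both lines. Jak3, the kinase of receptors with the common gamma chain, had 238, 714 and 449 counts (log2 ratio 1.55 in TR1), and in TR9 it was just past the 2-fold limit, a call that ended with TPM scaling (0.89). Jak2, the kinase of the erythropoietin and growth hormone receptors, had 1259, 621 and 549 counts (−1.05 and −1.10), and with TMM its call ended in both lines. Of the 7 STAT genes, Stat3 was called higher in both lines (541, 1512 and 1151 counts, log2 ratios 1.46 and 1.19). Stat5a was called lower in both (862, 275 and 318 counts, −1.68 and −1.35). Its near copy Stat5b was called lower in TR1 (log2 ratio −1.26), where reads could be split between both genes.

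Targets of STAT factors and of interferon were counted from lists of known target genes. For comparison, 8.09% of all genes were called higher and 13.0% lower in TR1, and 9.37% and 10.8% in TR9. The medians over all genes were −0.29 and −0.12. All 9 STAT3 targets were called higher in TR1 and 7 of 9 in TR9, with a median log2 ratio of 2.60 and 2.61. Of the other two in TR9, Bcl3 was at −1.67 (24 counts in control, 79 and 7 in the TR libraries) and Il4ra at 0.57. They were led by Lcn2, Hp and Fos, of which Lcn2 (29, 5044 and 1109 counts) encodes a granule protein and is also in the late granulocyte list. Of the 12 STAT5 targets, 3 were called higher and 3 lower in each line, the same genes in both, with a median of 0.04 in each. Those with the largest ratios were Id1 (log2 ratios 3.92 and 3.72), Bcl6 (3.52 and 2.64) and Ccnd2, a cyclin (−2.63 and −3.49). Tfrc, also called lower in both lines, is in the erythroid list too. The list does not separate genes that STAT5 induces from genes that it represses, so its median gives no direction of STAT5 activity. Of the 15 interferon targets, 1 was called higher in TR1 and 5 in TR9. Oasl2 was called in both (65, 291 and 591 counts), and Irf1, Irf7, Ifit1 and Gbp2 in TR9, where the call of Irf1 ended with TPM scaling (0.94). The line-to-line test called 4 of the 15 higher in TR9 than in TR1 (Irf7, Ifit1, Oasl2 and Psmb8) and 0 lower (all genes: 4.34% and 2.31%). With TMM, 2 of these calls remained, Irf7 and Oasl2.

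Of the 32 receptors that the members are known to act on, 9 were called higher and 8 lower in TR1 (all genes: 8.09% and 13.0%). In TR9, 6 of them were called higher and 9 lower (all genes: 9.37% and 10.8%). Among those called lower in both were Epor (316, 0 and 1 counts), which is also an erythroid marker, and Il10ra (63, 1 and 5 counts). Another 3 receptors were picked after their values were seen, as partners of Socs3, Socs2 and Cish. The G-CSF receptor Csf3r, a partner of Socs3, had 401, 3745 and 1931 counts (log2 ratios 3.17 and 2.32). Il6st, which encodes gp130, the other main partner of Socs3, had 526, 114 and 114 counts (−2.23 and −2.11). Ghr, the growth hormone receptor, had 7, 30 and 222 counts (1.55 and 4.63), and like Cish it was called higher in TR9 than in TR1 (log2 ratio 3.08). Its TR1 call ended with TPM scaling.

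Of the 17 receptors taken here as docking Shp-1, 16 were listed in TR1 or control. In TR1, 10 were called higher and 2 lower (all genes: 8.09% and 13.0%), with a median log2 ratio of 2.27 beside −0.29 over all genes. The lower call of Lair1 ended with TMM (−0.76), and TPM added a lower call of Cd72 (−1.75). In TR9, 7 of 17 were called higher and 1 lower (all genes: 9.37% and 10.8%). With TPM the higher call of Sirpa ended (0.94) and Cd72 was called lower (−1.62). The TR9 median was 0.89, or 0.64 with genes at 0 at their bound, beside −0.12 and 0.02 over all genes. Cd33 (23.6, 1198 and 238 counts) and Clec4a2 (23.8, 642 and 123), both receptors of myeloid cells, had the largest mean ratio over both lines among those higher in both. In TR9, Clec4a2 at 2.44 was behind Lilrb4a at 2.78 and Pecam1 at 2.63. Siglecg, an inhibitory receptor of B cells, was lower in both lines (50, 6 and 2 counts). Between the lines, 6 of 17 were called lower in TR9 and 1 higher (all genes: 2.31% and 4.34%). Among 8 Src family kinases, which CD45 acts on, Src was lower in both lines (139, 0 and 1 counts) and Fgr, a myeloid member, was higher in both (20, 239 and 48 counts), with its TR9 call lost under TPM.

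The remaining lists held few calls. Over all genes, 8.09% were called higher and 13.0% lower in TR1, and 9.37% and 10.8% in TR9. Of 23 other SOCS-box genes listed, 0 were called higher in either line and 2 lower in each. These were Asb17 in both (17, 0 and 0 counts), Asb1 in TR1 and Asb6 in TR9. Of the 23, 7 were at 0 in TR1 and 6 in TR9. Several held at most 5 counts in every library, too few to be called. Of the 6 genes of the Cul5 ligase that the SOCS box recruits, Cul5 itself was called lower in TR1 (584, 294 and 333 counts, log2 ratio −1.01), a call that ended with TMM, and none was called in TR9. Of 11 other negative regulators of JAK and STAT, 0 were called higher and 1 lower in TR1, and 1 higher and 1 lower in TR9. The lower gene in TR1 was Ptpn11, which encodes Shp-2 (log2 ratio −1.06, and −0.81 with TMM, not called). In TR9 the phosphatase Ptpn2 was higher (1.05, and 0.94 with TPM, not called) and the adaptor Sh2b3 lower (−1.15). The medians of these 11 genes were −0.20 and 0.23, beside −0.29 and −0.12 over all genes.

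**Figure D4:**
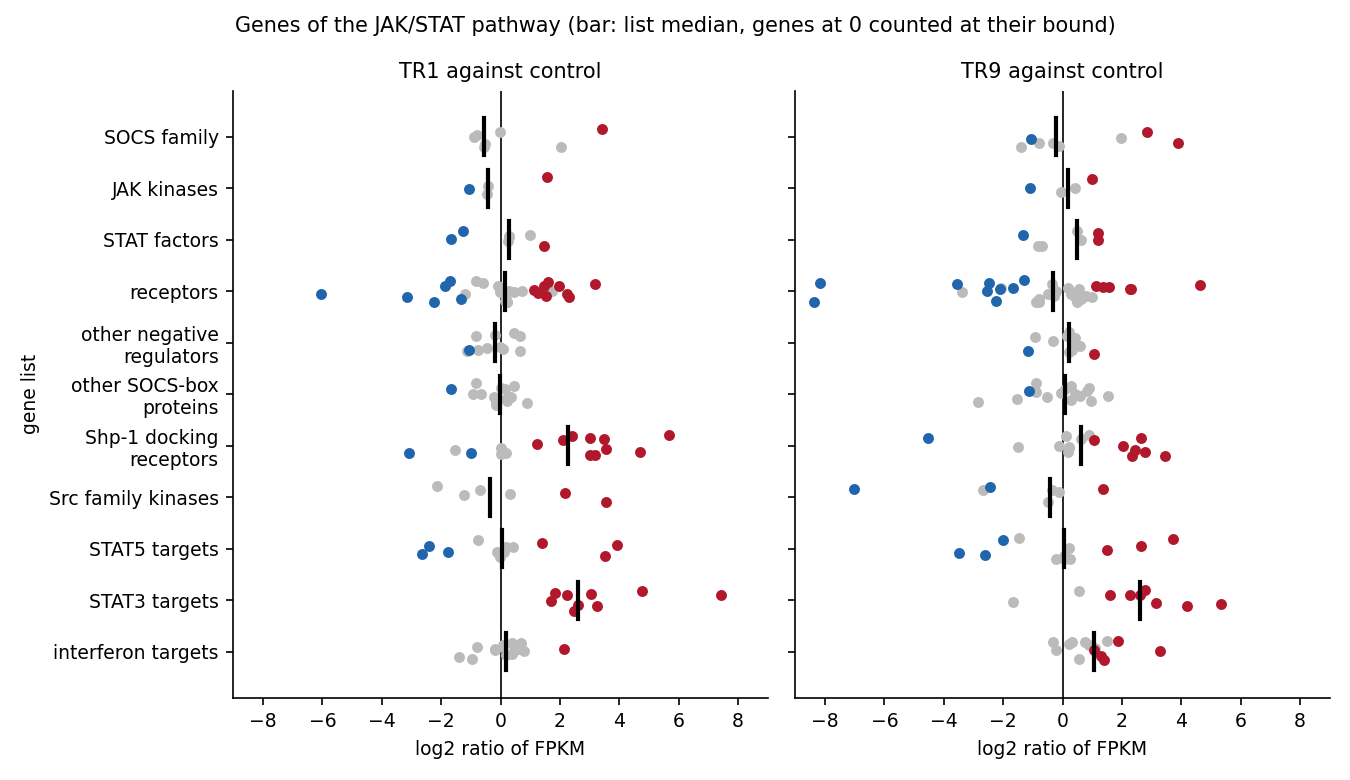
Log2 ratio of each gene of the pathway lists in TR1 and in TR9 against control, 1 dot per gene detected in both libraries of the comparison, with a bar for the median of the list, where genes at 0 enter at their bound. Red dots were called higher, blue dots lower and grey dots neither. The STAT3 targets lie to the right in both lines except Bcl3 in TR9 (−1.67), with medians of 2.60 and 2.61, whereas the dots of the other SOCS-box genes lie on both sides of 0.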

How the data were processed

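RNA-seq of 3 libraries was analysed, 1 per condition, each pooling 3 mice. Filtered reads were mapped by the authors (BWA, Bowtie) and genes were quantified by RSEM; the submitters' processing notes name mm9, and versions are not given in the sources used here. The authors deposited the expected count of each gene, not normalized, the FPKM, scaled by RSEM for length and library, and the gene length. Totals were 5488778, 5571409 and 5129662 expected counts.

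Of 16742 NCBI Gene IDs, 16698 were matched to the RefSeq table of GRCm38.p6, and an unlisted gene was taken as 0. Coordinates came from GENCODE M21 (GRCm38) and promoter windows from RefSeq, not from the authors' build. After rounding, the counts of 2 libraries were set against each other in a two-sided conditional exact Poisson test (scipy 1.17.1) against the library totals, with Benjamini-Hochberg adjustment. Log2 ratios were of FPKM with a floor of 0.01; genes at 0 were given a bound at 3 counts. Intervals for ratios are Clopper-Pearson, for levels exact Poisson and for pairs of genes conditional on a Fisher table. The test was checked on simulated Poisson counts without variation between mice, so the check covers counting error only. Genes with as few counts as Socs3 and Cish had in control were not among those changed in it. Reads are not independent molecules, so intervals and floors cover counting error only.

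Named genes were every member, the 3 genes with the largest mean ratio among those called alike in both lines in each list, and the 3 nearest to Socs3; receptors picked later are named as such, and some genes under this rule are not reported here. The members and lists were chosen with earlier results of these data known. Alternatives were TMM (edgeR 4.0.16), DESeq2 1.42.0 size factors (median of ratios) and TPM scaling, a pseudocount of 1 FPKM, a floor of 0.001 FPKM, a minimum of 10 counts, the edgeR exact test at a biological coefficient of variation (BCV) set to 0.2 or 0.4, and other thresholds.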

Additional observations from a re-analysis of the deposited data

Results flagged for a closer look

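Of the 10 members, 3 differed between the TR lines under the same contrast with control, by the direct test of TR9 against TR1 (the exact Poisson test on 1 library per line, with p-values adjusted after Benjamini and Hochberg). Over all 15706 genes, 19.6% passed the same adjusted p of 0.001 with no limit on the fold, and with the 2-fold limit Cish and Ptprc were called and Ptpn6 was not. Cish was higher in TR9 than in TR1 by a log2 ratio of 3.74, with 74 counts against 6 and an adjusted p of 5.74e-16 in this exact test. Ptprc was lower in TR9 by a log2 ratio of −2.01, with 539 counts against 2369 (adjusted p = 1.58e-237, exact test), and it lay above control in TR1 and below control in TR9. Ptpn6 was lower in TR9 by a log2 ratio of −0.50, with 619 counts against 953 (adjusted p = 1.35e-10, exact test), a difference within 2-fold that did not pass with an assumed BCV of 0.2 either (adjusted p = 0.963, edgeR exact test). With an assumed BCV of 0.4 between mice, neither Cish (adjusted p = 0.0909, edgeR exact test) nor Ptprc (adjusted p = 0.842, edgeR exact test) passed.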

How the results depend on the processing

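TMM moved the log2 ratios of all genes by 0.25 in TR1, 0.11 in TR9 and −0.13 between the lines. Over all genes it called 1694 higher and 1591 lower in TR1, in place of 1317 and 2120. TMM and median-of-ratios scaling turned the TR1 ratio of Socs5 to 0.24 and 0.23 and that of Ptpn6 to 0.24 and 0.23, and the members' median between the lines to −0.0329 and −0.0197, and TPM turned Socs1 between the lines to 0.0682. Members called lower in TR1 went from 0 to 1 with TPM (Socs6, −1.02) and to 1 at a false discovery rate of 0.05 (Socs2). Members called lower in TR9 went from 1 to 0 with TMM, median of ratios (Socs6, −0.99), the pseudocount (−0.92), both BCVs and a log2 limit of 2. Members called higher in TR1 fell to 1 with BCV 0.2 or the log2 limit of 2 (Ptprc lost), and to 0 with BCV 0.4. BCV 0.4 also left 0 members higher in TR9, and 0 higher and 0 lower between the lines; over all genes it called 170 higher in TR1, 161 higher and 287 lower in TR9, and 13 higher and 2 lower between the lines. Socs3 kept its call in 9 of 10 alternatives in each line, with log2 ratios of 2.03 to 3.68 in TR1 and 2.43 to 4.01 in TR9. Of all the alternatives tried for single members, 273 kept direction and call, 14 lost the call, 2 gained it and 5 turned direction; the cause was not tested. The calls of list genes under other scalings were an alternative chosen after seeing the data. No paired analysis was possible because each condition has 1 library, and no replicate could be left out. At this depth Socs1 and Socs2, with at most 9 counts in any library, limit what can be said of them.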
